A study of Mus musculus with 5 samples.

Results

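The CXC chemokines are small secreted proteins that direct the movement of leukocytes, and their receptors are G protein-coupled receptors on the migrating cells. Of 32285 genes listed for each library, 10 were followed here by symbol: the 7 ligands Cxcl1, Cxcl2, Cxcl9, Cxcl10, Cxcl12, Cxcl13 and Cxcl16, and the 3 receptors Cxcr3, Cxcr5 and Cxcr6. They had been picked because earlier values from these data showed Cxcl13 in myeloid cells of the AKI phase and Cxcr3 and Cxcr6 in T lymphocytes, so the levels by cell type, all values of Cxcl13 in macrophages and dendritic cells and all values of Cxcr3 and Cxcr6 in T cells are a description, printed with no p. All 10 had UMIs in kept cells. Cxcl11, another Cxcr3 ligand, was not analysed here.

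Kidneys of wild-type male C57BL/6 mice, adults, were dissociated with enzymes and their cells sequenced with the 10x Chromium 3′ v2 chemistry. Mice of the injured groups received aristolochic acid I (AAI), a plant toxin taken up by the proximal tubule, by intraperitoneal injection at 3 mg/kg. The control group was taken at week 0 (1 library), the AKI group at week 2 (2 libraries, AKI 1 and AKI 2) and the CKD group at week 4, after AAI had been stopped (2 libraries, CKD 1 and CKD 2). Neither the labels nor the methods state how many mice each library holds.

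Neutrophils are drawn by Cxcl1 and Cxcl2 through Cxcr2. Interferon-gamma induces Cxcl9 and Cxcl10, which attract activated T cells and NK cells through Cxcr3. Cxcl12 is made by stromal cells and binds Cxcr4, Cxcl13 draws Cxcr5-bearing B cells and follicular helper T cells into lymphoid follicles, and Cxcl16 is anchored in the membrane until it is shed and binds Cxcr6, a receptor of tissue-resident T cells.

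Myeloid cells and T lymphocytes carried most of the family's transcripts. Between AKI and CKD, macrophage-like cells lowered Cxcl1, Cxcl2, Cxcl9, Cxcl10 and Cxcl16. Among macrophage-like cells, those led by Acp5, Ctsk or Mmp9 had a larger share in both CKD libraries and those led by Ccl8 a smaller one. The level of Ccl8 itself was lower in the Ccl8-led cells of CKD. In these Ccl8-led cells none of the 5 ligands was lower by the same test, run there without alternatives, and Cxcl1 and Cxcl2 were higher. In all other macrophage-like cells each of the 5 stood lower in both CKD libraries than in both AKI libraries. Cxcl13 stood in a small number of Ccl8-led macrophages of both AKI libraries and was close to 0 in macrophages of the control and CKD libraries. In CD8 T-like cells both CKD libraries lay above both AKI libraries for Cxcr3 and below them for Cxcr6, each by less than 1 log2 unit and as a description only.

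Among the members, 5 of the ligands lie on chromosome 5 of the mouse (GRCm39, GENCODE annotation). Cxcl1 (chr5:91039094-91040974, plus strand) and Cxcl2 (chr5:91051730-91053797, plus strand) are 10.76 kb apart. Cxcl9 (chr5:92469206-92475945, minus strand) and Cxcl10 (chr5:92494497-92496748, minus strand) are separated by 18.55 kb, and Cxcl13 (chr5:96104810-96108927, plus strand) begins 3608 kb beyond Cxcl10. Cxcl12 is at chr6:117144945-117158328 and Cxcl16 at chr11:70344517-70352620. The receptor genes lie at chrX:100775141-100777875 (Cxcr3), chr9:44423083-44473174 (Cxcr5) and chr9:123635534-123640825 (Cxcr6). All 10 are annotated as protein-coding, and UMIs were counted over whole genes, so no value belongs to a single exon.

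The promoters of the 5 ligands on chromosome 5 are shown because these genes lie near each other and most of the differences described below concern them. Each is the 250 bases before the gene's start, from RefSeq on the older build GRCm38.p6, written 5′ to 3′ on the gene's own strand. RefSeq promoters were matched for 8 of the 10 members, without Cxcl16 and Cxcr5. Capitals mark matches to 1 of 4 motifs searched on both strands: the kappa-B site (GGGA, any base, TTTCC), the interferon-stimulated response element (GAAA, any 2 bases, GAAA), the gamma-activated site (TTC, any 3 bases, GAA) and the TATA box (TATAAA). The stretches are chr5:90890995-90891244 for Cxcl1, chr5:90903649-90903898 for Cxcl2, chr5:92328080-92328329 for Cxcl9, chr5:92348890-92349139 for Cxcl10 and chr5:95956689-95956938 for Cxcl13.
Cxcl1: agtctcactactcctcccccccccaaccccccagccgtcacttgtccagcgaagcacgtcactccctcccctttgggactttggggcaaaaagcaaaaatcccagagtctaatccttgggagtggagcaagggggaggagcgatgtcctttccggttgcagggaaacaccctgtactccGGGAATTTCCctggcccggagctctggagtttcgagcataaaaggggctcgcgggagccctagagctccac
Cxcl2: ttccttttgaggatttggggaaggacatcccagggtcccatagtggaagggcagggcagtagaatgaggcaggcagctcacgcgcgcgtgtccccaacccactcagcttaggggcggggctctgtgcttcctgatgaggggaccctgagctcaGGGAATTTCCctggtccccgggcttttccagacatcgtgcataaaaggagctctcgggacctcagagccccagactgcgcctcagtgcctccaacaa
Cxcl9: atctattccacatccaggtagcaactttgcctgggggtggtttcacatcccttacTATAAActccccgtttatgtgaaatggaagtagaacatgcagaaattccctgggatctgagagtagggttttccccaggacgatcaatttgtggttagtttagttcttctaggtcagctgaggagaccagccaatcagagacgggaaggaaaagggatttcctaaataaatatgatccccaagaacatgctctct
Cxcl10: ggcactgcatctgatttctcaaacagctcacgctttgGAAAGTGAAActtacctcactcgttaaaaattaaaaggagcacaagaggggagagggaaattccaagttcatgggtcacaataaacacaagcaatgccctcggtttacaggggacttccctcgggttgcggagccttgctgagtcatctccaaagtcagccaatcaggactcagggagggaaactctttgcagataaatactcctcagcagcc
Cxcl13: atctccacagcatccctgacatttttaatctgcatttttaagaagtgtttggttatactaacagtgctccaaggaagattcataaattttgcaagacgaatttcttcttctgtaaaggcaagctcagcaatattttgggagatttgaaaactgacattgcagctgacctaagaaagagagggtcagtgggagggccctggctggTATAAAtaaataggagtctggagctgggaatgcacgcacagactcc

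Cxcl1 and Cxcl2 carried the same 10 letters, GGGAATTTCC, beginning 71 and 97 bases before the start. That kappa-B motif was found in 0.356% of 32851 mouse promoters of this length. Cxcl10 held the interferon-stimulated element GAAAGTGAAA beginning 213 bases before its start, a motif in 2.98% of promoters. Cxcl13 and Cxcl9 each held TATAAA, 46 and 195 bases before the start, as did 12.4% of promoters. None of the 8 held the gamma-activated letters, which 7.02% of promoters do. These are matches of letters and not measured binding sites.

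The deposited counts comprised 72896 barcodes and 90028670 to 121316769 UMIs (unique molecular identifiers, single captured RNA molecules) per library. After filtering, 53718 cells remained, 8496 to 16330 per library, with a median of 2833.5 to 5599 UMIs per cell. The control stood apart in that 38.7% of its barcodes had more than 30% mitochondrial UMIs, against 11.1 to 12.7% elsewhere, and 88 of its barcodes were shared with CKD 2 at more than 20 times the UMIs there. Leaving those cells out moved 3 of 110 control levels of the members beyond their counting interval, all of which fell to 0: Cxcl13 in CD8 T-like cells, Cxcl13 in all T lymphocyte-like cells, and Cxcr5 in unnamed cells. Clusters were named by markers, and 48954 cells carried a name. A cluster of 431 cells that scored highest on podocyte markers was led by Cldn1, Ncam1, Cpe and Wt1 and held 0.29 UMIs per 10000 of the defining podocyte gene Nphs1, so it is called the Cldn1-led cluster. The Treg-like class contained a subcluster led by Il1rl1 and Areg that made up 58.2% of its 79 control cells, and in that subcluster Foxp3 was at 0 in the control. Its values are therefore also given without that subcluster.

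A level below is the number of UMIs of a gene per 10000 UMIs of all genes, over all cells of a class in 1 library. Runs of 5 levels are in the order control, AKI 1, AKI 2, CKD 1 and CKD 2. The counts behind the levels differed widely, from 351537 UMIs of Cxcl10 and 200147 of Cxcl2 to 1872 of Cxcl13 and 600 of Cxcr5 in all kept cells. CKD was tested against AKI on UMIs summed per library (edgeR's quasi-likelihood test, Benjamini-Hochberg adjustment over all genes tested in that class, threshold 0.05). The control has no replicate and entered no test. Cxcl13 in macrophage-like and dendritic-like cells is left out of the counts of tests, because its values there had a part in choosing the genes. Over 10 classes, 69 other member-by-class pairs passed the filter on low counts and were tested. Of these, 2 were higher and 10 lower in CKD, beside 7.35% of all gene-by-class tests called (3.96% higher and 3.39% lower). Without the 6 pairs of Cxcr3 and Cxcr6 in CD8, CD4 and Treg-like cells, whose values had a part in choosing the genes, 1 was higher and 9 lower of 63.

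**Figure D1:**
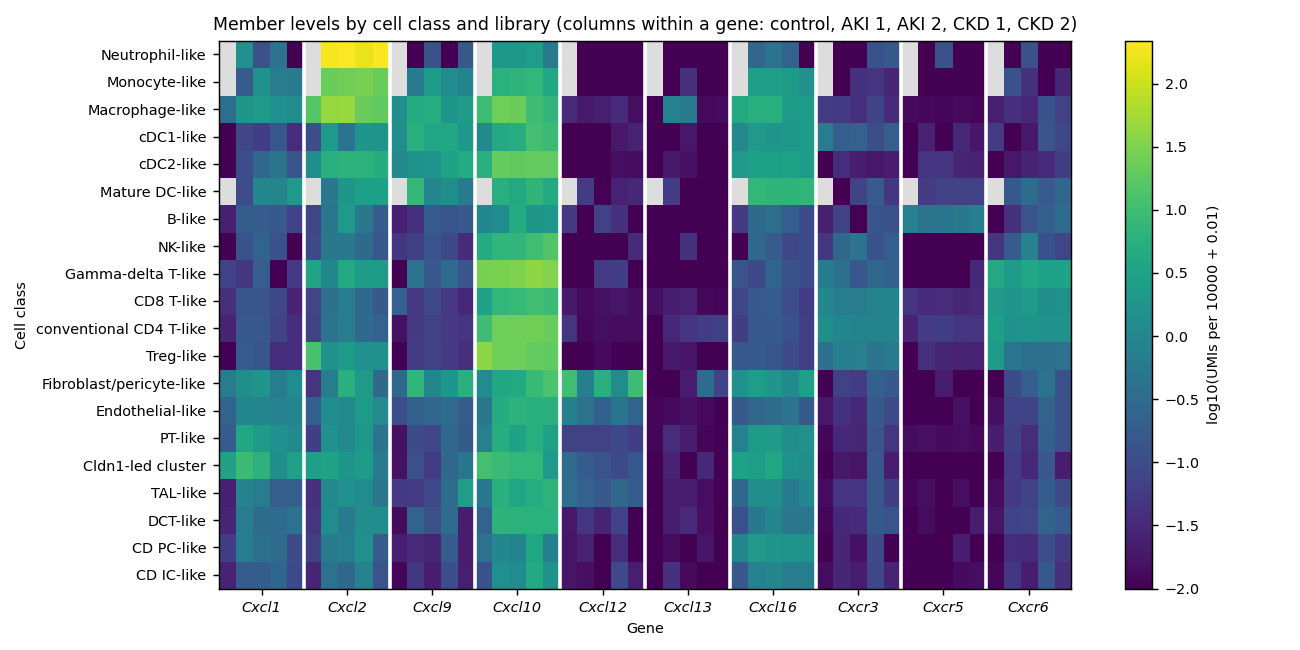
Levels of the 10 members (columns within each panel are control, AKI 1, AKI 2, CKD 1 and CKD 2) by cell class, on a log10 scale of UMIs per 10000 plus 0.01; grey marks classes with under 20 cells in that library. Cxcl2 is highest in neutrophil-like cells, Cxcl12 in fibroblast/pericyte-like cells, Cxcr5 in B-like cells, and Cxcr3 and Cxcr6 in T classes, while Cxcl10 is spread over myeloid, T and tubular classes.

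Cxcl1 had tubular and myeloid sources. Its level in proximal tubule (PT)-like cells was 0.166, 3.99, 2.43, 1.56 and 1.12, so that the control was lowest and both AKI libraries lay above both CKD libraries. The PT-like difference of CKD from AKI, a fall by 1.203 on the log2 scale (SE 0.28), did not pass (edgeR adjusted p = 0.0955). The Cldn1-led cluster had the highest mean level over libraries, with 3.09, 9.25, 6.08, 1.42 and 3.05, and its range overlapped that of PT-like cells. Thick ascending limb (TAL)-like cells went from 0.014 in the control to 0.875 and 0.656 in AKI and 0.195 and 0.199 in CKD. Endothelial-like cells were lower in the control, at 0.245, than in the other 4 libraries, at 0.835 to 0.974. Of all Cxcl1 UMIs, PT-like cells held 7.85, 27.6, 21.7, 33.2 and 12.3%, and macrophage-like cells 9.46, 21.5, 41.4, 40.6 and 56.7%.

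In macrophage-like cells the Cxcl1 level was 0.354, 2.00, 2.23, 1.497 and 1.29. Both AKI libraries exceeded both CKD libraries, and Cxcl1 fell by 0.77 on the log2 scale (SE 0.11, edgeR adjusted p = 0.00432). Treg-like cells showed the largest called fall of Cxcl1, by 2.49 (SE 0.34, edgeR adjusted p = 0.00847), on 0, 51, 50, 5 and 10 UMIs. That class called 3.45% of its genes, and the value without the Il1rl1-led subcluster was a fall by 2.46 (edgeR adjusted p = 0.00848). The levels in CD8 T-like cells (0.017 to 0.135) and conventional CD4 T-like cells (0.018 to 0.147) were low in every library. Macrophage markers in the T classes moved alongside: their summed level was 1.10 and 1.48 in AKI and 0.669 and 0.316 in CKD Treg-like cells, and their part in the T cell values was not tested.

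Cxcl2 was foremost a transcript of neutrophils and macrophages. In the 4 libraries with enough neutrophil-like cells, AKI 1 to CKD 2, it stood at 189, 218, 160 and 207, above every other class and without separation of the groups. Monocyte-like cells had 22.5, 25.3, 28.1 and 22.6 in these libraries, below macrophage-like cells in both AKI libraries and above them in both CKD libraries. Because macrophages were far more numerous, they held 74.3, 82.0, 86.2, 73.9 and 78.8% of all Cxcl2 UMIs.

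Macrophage-like cells had Cxcl2 levels of 14.98, 44.1, 46.2, 22.2 and 19.2. The AKI libraries were above the CKD libraries and these above the control, and the fall from AKI to CKD was 1.29 on the log2 scale (SE 0.10, edgeR adjusted p = 0.000736). Conventional CD4 T-like cells had 0.059, 0.439, 0.687, 0.296 and 0.223, a fall by 1.18 (SE 0.21, edgeR adjusted p = 0.0406), the only member called in that class, where 2.5% of genes were. Without AKI 2 this fall was 0.82 with an edgeR adjusted p of 0.124, with doublets kept the adjusted p was 0.0907, and the macrophage marker sum in the same cells was 0.240, 1.07, 1.57, 0.558 and 0.379. The part of macrophage RNA in that value was not tested. Treg-like cells of the control stood out at 12.2 against 1.47 to 2.11 elsewhere, and the Il1rl1-led subcluster within them had 17.7, 3.07, 2.30, 9.31 and 15.4. Without that subcluster Cxcl2 fell in Treg-like cells by 0.84 (edgeR adjusted p = 0.0317), beside 3.37% of genes called.

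Cxcl9 was found in antigen-presenting and stromal cells. Levels in conventional dendritic cells of type 1 (cDC1-like) were 1.31, 5.76, 3.49, 4.0035 and 2.05, and in those of type 2 (cDC2-like) 1.08, 1.65, 1.77, 3.16 and 4.65. Fibroblast/pericyte-like cells ranged from 0.288 in the control to 7.27 in AKI 1, with AKI 2 at 0.975, CKD 1 at 1.87 and CKD 2 at 5.64, so libraries of 1 group differed more than the groups. These 3 classes and macrophages overlapped in their ranges. Macrophage-like cells held 49.9, 72.1, 82.7, 50.9 and 58.0% of Cxcl9 UMIs and all dendritic-like cells 29.5, 12.4, 9.4, 23.2 and 25.2%.

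The Cxcl9 level in macrophage-like cells was 1.33, 4.92, 5.03, 1.83 and 2.40. The AKI libraries lay above the other 3, and the fall to CKD was 1.40 on the log2 scale (SE 0.17, edgeR adjusted p = 0.0024). In the dendritic-like classes together the levels were 2.05, 3.69, 2.23, 3.07 and 3.46, and CKD differed from AKI by 0.09 (edgeR adjusted p = 0.951). No member was called there by edgeR, with 1 of 8 at an unadjusted p under 0.05, in a class that called 0.135% of genes. Within macrophages, a subcluster led by Lyz1, Cxcl9 itself and H2-M2 had Cxcl9 levels of 40.1, 34.5, 29.5, 20.7 and 36.0 and made up 1.2, 4.9, 5.5, 1.4 and 2.3% of the class. Its share was higher in both AKI libraries than in the other 3. TAL-like cells reached 2.68 in CKD 2 alone, against 0.043 to 0.330 elsewhere.

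Cxcl10 was spread over many classes, and its largest pool lay in T lymphocytes. Gamma-delta T-like cells had the highest mean level, with 28.1, 29.3, 31.8, 39.9 and 32.4, on 39 to 94 cells per library. Conventional CD4 T-like cells had 9.77, 24.1, 23.7, 25.3 and 21.7, and CD8 T-like cells 3.16, 7.55, 8.16, 10.3 and 9.10. In both the control was lowest by far, while AKI and CKD were not called apart (log2 differences of -0.07 and 0.28, edgeR adjusted p = 0.714 and 0.081). Together the T classes held 30.7% of Cxcl10 UMIs in the control, 51.0 and 47.2% in AKI and 49.8 and 70.1% in CKD. Subclusters led by interferon-induced genes were highest within each class in the injured libraries. The CD4 subcluster led by Ifit1 had 20.9, 53.4, 58.0, 53.6 and 51.6, and the CD8 subclusters led by Ifit1 and by Ifi214 had 14.5, 33.1, 31.1, 36.4 and 36.5 and 21.4, 27.1, 33.2, 40.8 and 38.6.

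Treg-like cells had Cxcl10 levels of 38.8, 24.0, 24.0, 19.9 and 18.7. Without the Il1rl1-led subcluster the control fell to 14.1, below the other libraries at 15.9 to 21.3, which turned the order of control and injury. The same exclusion made CKD lower than AKI by 0.39 on the log2 scale (edgeR adjusted p = 0.0444), whereas the whole class had a difference of -0.31 that was not called (edgeR adjusted p = 0.0845).

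Macrophage-like cells had Cxcl10 levels of 9.69, 23.8, 22.3, 9.79 and 7.10. The CKD libraries were close to the control and below both AKI libraries, a fall by 1.62 (SE 0.15, edgeR adjusted p = 0.00118). In cDC2-like cells the level was 5.71, 20.5, 18.8, 20.02 and 19.8, so in these antigen-presenting cells the CKD libraries stayed at the height of the AKI libraries. Macrophages with Cxcl9 more often held Cxcl10 too: after thinning each cell to 1500 UMIs, Cxcl10 was found in 79.7, 76.1, 74.4 and 66.7% of macrophages with Cxcl9 in AKI 1 to CKD 2, and in 64.4, 65.7, 55.7 and 37.4% of those without. In the control the shares were 45.5 and 44.1%. These are shares of cells and carry no test.

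Several resident kidney classes had more Cxcl10 in the injured libraries than in the control. Endothelial-like cells had 0.538, 4.89, 6.46, 5.62 and 5.66, and distal convoluted tubule-like cells 0.220, 6.30, 6.11, 5.80 and 5.90. In both, the 4 injured libraries lay close together and the control far below them. PT-like cells had 0.809, 4.996, 3.12, 5.24 and 3.07 and fibroblast/pericyte-like cells 1.25, 3.99, 4.25, 8.58 and 12.7. The Cldn1-led cluster went the other way, with the control highest at 11.6 and the others at 8.93, 7.52, 7.52 and 2.20. None of the 3 tested classes, endothelial, PT and fibroblast, called Cxcl10 between CKD and AKI, and the control was not tested.

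Markers of T cells, which held much of the Cxcl10, were also lowest in the control in these resident classes. Their summed level was 0.106, 1.37, 1.57, 5.85 and 2.27 in endothelial-like cells and 0.136, 1.203, 0.764, 5.69 and 4.06 in distal convoluted tubule-like cells. In PT-like cells it was 0.131, 0.925, 0.671, 4.997 and 2.11 and in fibroblast/pericyte-like cells 0.075, 1.81, 2.59, 12.4 and 7.88. Macrophage markers summed to 0.346 in the control and 1.65 to 4.15 elsewhere in PT-like cells, and to 0.70 and 0.859 to 10.0 in fibroblast/pericyte-like cells. The part of that RNA in the Cxcl10 levels was not tested.

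Cxcl12 had its highest level in fibroblast/pericyte-like cells. They had 10.3, 0.743, 5.57, 1.24 and 9.89 and endothelial-like cells 0.707, 0.412, 0.216, 0.480 and 0.228, ranges that did not overlap. Of all Cxcl12 UMIs, fibroblast/pericyte-like cells held 51.2, 10.75, 68.5, 11.8 and 74.0% and endothelial-like cells 24.9, 32.9, 10.1, 29.8 and 8.57%. Tubular cells held a part as well: TAL-like cells had 10.3, 21.7, 5.71, 20.5 and 3.79%, above fibroblast/pericyte-like cells in AKI 1 and CKD 1. The fibroblast values split within each injured group, and CKD differed from AKI by 0.93 with an SE of 1.12 (edgeR adjusted p = 0.788). Dcn, a matrix proteoglycan of fibroblasts, was also lowest in AKI 1 and CKD 1, at 48.5, 16.6, 34.1, 10.5 and 78.8. The class held 113, 61, 75, 220 and 43 cells. Pdgfra was lowest there too, at 2.21, 1.29, 1.415, 0.229 and 1.34. Col1a1 and Acta2 were not low in AKI 1. Col1a1 stood at 10.9, 10.3, 8.4, 1.73 and 9.20, and Acta2 at 30.0, 21.3, 13.9, 16.45 and 15.9. In CKD 1 the summed T cell markers reached 12.4 and the macrophage markers 10.0 per 10000 within this class, against 0.075 and 0.70 in the control. The part of that RNA in the Cxcl12 values was not tested. Endothelial Cxcl12 differed by 0.28 between CKD and AKI (SE 0.44, edgeR adjusted p = 0.94), with the control above all others.

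The cells that held Cxcl13 differed between the phases. In all kept cells it had 3, 809, 864, 88 and 108 UMIs. Macrophage-like cells held 85.9 and 90.5% of these in AKI but 4.5 and 4.6% in CKD, and conventional CD4 T-like cells held 56.8 and 88.9% in CKD. The macrophage level was 0 in the control (0 UMIs in 908 cells, which allows up to 0.010), 0.801 in AKI 1 (95% Poisson interval 0.742 to 0.863), 0.593 in AKI 2 (0.553 to 0.637), 0.0028 in CKD 1 and 0.0036 in CKD 2. The AKI mean was 0.697 ± 0.147 (SD, n = 2). These values chose the gene, so they carry no test, and the intervals cover counting error only.

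Few macrophages carried it. The 695 UMIs of AKI 1 lay in 29 of 877 cells and the 782 UMIs of AKI 2 in 26 of 1240 cells. In each library 3 cells held 50% of them or more, and the top cell held 170 and 203 UMIs. Without that cell the levels were 0.606 and 0.440. Counted by cells with at least 3 UMIs, 13 and 15 macrophages carried Cxcl13, so the AKI level rests on a small number of cells in each of 2 libraries.

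Most of those cells were macrophages of the Ccl8-led kind. The Ccl8-led subclusters, with Ccl7, Ccl12 and Pf4 among their leading genes, had 0, 1.46, 1.47, 0 and 0.028 UMIs of Cxcl13 per 10000. Among Ccl8-led AKI cells, 26 with at least 3 Cxcl13 UMIs had 58.8 UMIs per 10000 of the complement gene C1qa and 917 without any had 58.0. Ccl8 itself stood at 67.3 against 38.5 and Pf4 at 10.8 against 5.61. Other lineages were at or near 0 in the Cxcl13 cells: the T cell gene Cd3e at 0.077 (0.040 in those without), the B cell gene Cd79a at 0 and the fibroblast gene Col1a1 at 0. Their median depth was 10540 UMIs against 9662. The transcription regulator Id2 had 12.5 against 6.04 in AKI 1 and 10.1 against 5.07 in AKI 2. It is named because it came first when genes were ranked by this ratio in these same cells, so its values carry no test.

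**Figure D2:**
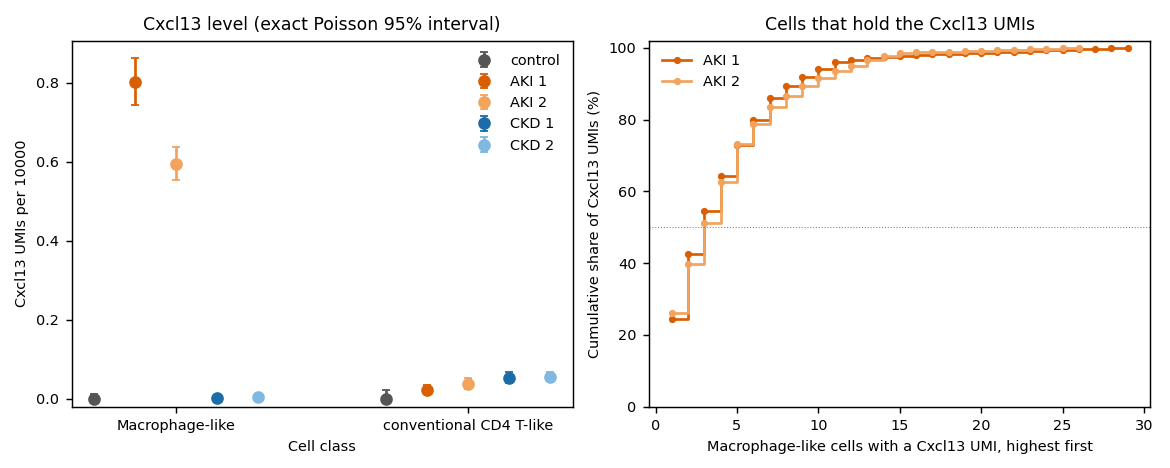
Left, Cxcl13 level (UMIs per 10000, with 95% Poisson intervals) in macrophage-like and conventional CD4 T-like cells of each library; right, the cumulative share of Cxcl13 UMIs over macrophage-like cells ranked by their Cxcl13 UMIs in AKI 1 and AKI 2, with a dotted line at 50%. Macrophages stand at 0.801 and 0.593 in AKI and below 0.01 elsewhere, and 3 cells reach 50% of the UMIs in both AKI libraries.

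T lymphocytes carried Cxcl13 at a lower level. Conventional CD4 T-like cells had 0, 0.0218, 0.0364, 0.0518 and 0.0556 on 0, 19, 32, 50 and 96 UMIs, and CKD was not called apart from AKI (log2 difference 0.84, edgeR adjusted p = 0.181). In CKD 2 a single cell held 69 of the 96 UMIs and in CKD 1 the top cell held 18. The 10 CKD cells of this class with at least 3 UMIs had Cd3e at 2.77 and C1qa at 0, so these were T cells by their markers. In CD8 T-like cells Cxcl13 fell by 2.59 on the log2 scale (SE 0.60, edgeR adjusted p = 0.0334) on 1, 16, 19, 3 and 4 UMIs, a call that was lost without AKI 1 (edgeR adjusted p = 0.227) or AKI 2 (0.311), with doublets kept (0.0981), at a mitochondrial limit of 15% (0.178), without the subclusters led by cell cycle genes (0.108) and with the crossed pairing as a block (0.105). DESeq2 gave it no adjusted p. Macrophage markers in those CD8 cells summed to 0.376, 1.16, 1.55, 0.631 and 0.357. Fibroblast/pericyte-like cells had 19 UMIs in CKD 1 and at most 3 elsewhere.

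Cxcl16 was carried by myeloid and epithelial cells. Mature dendritic-like cells were highest and steady, with 7.43, 6.92, 6.90 and 7.12 in AKI 1 to CKD 2, above the range of macrophages. PT-like cells had 0.798, 2.27, 2.43, 1.37 and 1.59 and collecting duct principal-like cells 0.975, 2.17, 1.90, 1.76 and 1.72, with the control lowest in both. The PT-like fall by 0.64 from AKI to CKD was not called (edgeR adjusted p = 0.157). Macrophage-like cells had 4.39, 5.40, 5.21, 2.48 and 2.32, so the CKD libraries were below the control as well as AKI, and the fall was 1.31 (SE 0.10, edgeR adjusted p = 0.000746). The genes of its sheddases, Adam17 and Adam10, were also called lower in macrophage-like cells, by 1.10 and 0.41, beside 16.4% of all genes lower. In Ccl8-led macrophages 0 of these 2 were called, with a median of -0.03 and 1 at an unadjusted p under 0.05. In CD8 T-like cells Cxcl16 fell by 1.22 (SE 0.27, edgeR adjusted p = 0.0295) from 0.151 and 0.170 to 0.094 and 0.050, with the macrophage marker sums of those cells as given above. That edgeR adjusted p was 0.154 without AKI 1, 0.211 without AKI 2, 0.517 with doublets kept, where the fall was 0.58, 0.326 at the mitochondrial limit of 15%, 0.244 with no correction by library and 0.139 without the cycling subclusters.

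In macrophage-like cells, then, 5 of the 8 members tested were lower and 1 higher in CKD, with 31.4% of all genes called (15% higher, 16.4% lower). The members' median log2 difference was -1.03 and that of all genes tested 0.02. The class itself differed: its summed markers were 116, 148, 149, 44.8 and 49.3, and its subclusters shifted. The Ccl8-led cells made up 55.3, 47.6, 43.7, 16.0 and 23.1% and cells led by the matrix-degrading genes Acp5, Ctsk or Mmp9 7.60, 8.55, 6.21, 40.9 and 25.4%. Dropping an AKI library left CKD against a lone AKI sample, assumed to vary like the rest: without AKI 1, edgeR called 0 genes in this class (3550 at an unadjusted p under 0.05) and the adjusted p of the 5 ligands was 0.06 to 0.0892, and without AKI 2 it was 0.0455 to 0.0853, with Cxcl2 and Cxcl16 still called.

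Without the Acp5-, Ctsk- or Mmp9-led cells the 5 ligands were still called lower, by 0.46 (Cxcl1), 0.70 (Cxcl2), 0.80 (Cxcl9), 1.03 (Cxcl10) and 0.72 (Cxcl16), with 28.1% of genes called. In the Ccl8-led cells alone the picture was another. There Cxcl1 stood at 0.388, 1.25, 0.867, 2.14 and 2.65 and was higher in CKD by 1.02 (SE 0.20, edgeR adjusted p = 0.0202), beside 5.1% of genes called (2.2% higher, 2.9% lower). Cxcl2 stood at 16.3, 31.9, 29.6, 61.2 and 44.2 and was higher by 0.61 (SE 0.15, edgeR adjusted p = 0.0456). The other 3 were not called: Cxcl9 differed by -0.12 (edgeR adjusted p = 0.702), Cxcl10 by -0.31 (0.15) and Cxcl16 by 0.09 (0.761). No alternative setting or left-out library was run for the Ccl8-led cells, which were grouped by the same counts. Among those without Cxcl13, Ccl8 itself stood at 38.5 in AKI and 6.5 in CKD, and C1qa at 58.0 and 54.0. Whether the AKI and CKD cells under this name were the same kind was not tested.

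The remaining macrophages moved the other way for Cxcl2. Cxcl10 was lower in CKD in both kinds, in Ccl8-led cells at 24.7 and 23.8 in AKI and 21.3 and 22.4 in CKD. In macrophages led neither by Ccl8 nor by Acp5, Ctsk or Mmp9, Cxcl2 was 13.3, 58.1, 58.8, 26.0 and 25.9 and Cxcl10 12.7, 23.6, 22.0, 11.98 and 8.90. The Acp5-, Ctsk- or Mmp9-led cells were lowest of the 3 kinds in every library for Cxcl2, Cxcl9, Cxcl10 and Cxcl16, with Cxcl2 at 3.6, 4.76, 17.1, 5.26 and 4.43 and Cxcl10 at 4.16, 8.17, 7.56, 3.64 and 0.550. A subcluster led by Il1a and Fn1 was high in Cxcl2 in every library, at 31.7, 70.1, 67.5, 58.6 and 66.9, and its share of macrophages was 7.27, 17.0, 20.7, 4.96 and 9.53%. These subclusters were drawn from the same counts, so their levels are a description.

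**Figure D3:**
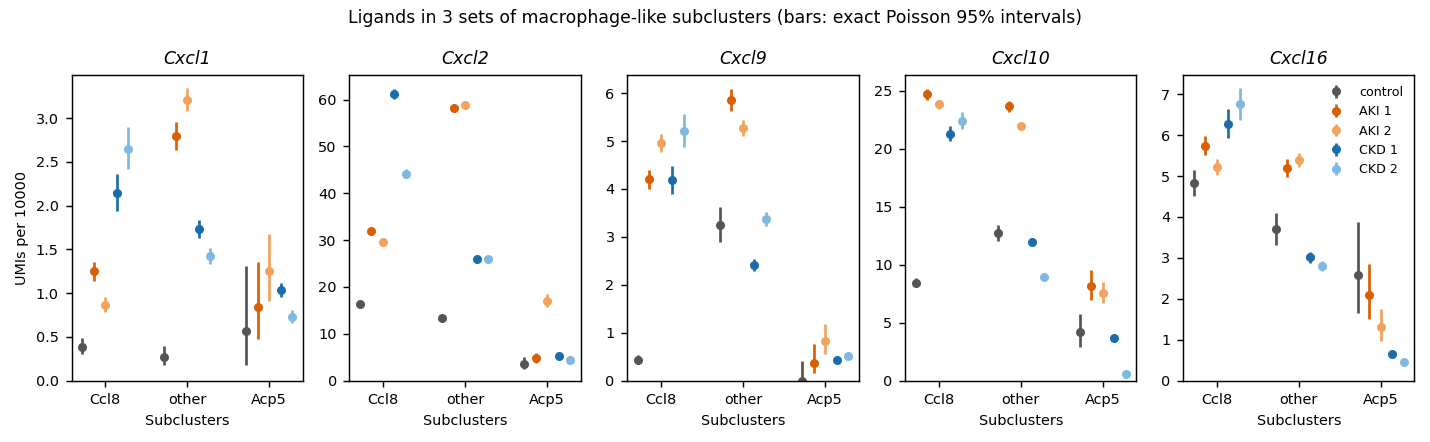
Levels (UMIs per 10000) of Cxcl1, Cxcl2, Cxcl9, Cxcl10 and Cxcl16 in each library for Ccl8-led macrophage-like cells, cells led by Acp5, Ctsk or Mmp9, and the remaining macrophage-like cells. In Ccl8-led cells Cxcl2 rises from 31.9 and 29.6 in AKI to 61.2 and 44.2 in CKD, while in the remaining cells it falls from 58.1 and 58.8 to 26.0 and 25.9.

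Cxcr3 was a receptor of T lymphocytes, and T classes held 72.3 to 93.7% of its UMIs. Conventional CD4 T-like cells had 1.40, 0.954, 0.870, 0.894 and 0.895, and CD8 T-like cells 1.00, 0.662, 0.667, 0.869 and 0.890, ranges that overlapped. In CD8 T-like cells the control was highest, both CKD libraries lay above both AKI libraries, and the fitted difference was 0.38 on the log2 scale (SE 0.08). The share of CD8 cells with a Cxcr3 UMI was 24.8, 20.7, 22.1, 30.2 and 40.5% at median depths of 3180, 3732, 3718, 3712 and 6037 UMIs. Thinned to 1500 UMIs per cell it was 12.5, 9.21, 9.36, 12.2 and 12.3%, leaving out 71, 131, 88, 194 and 58 shallower cells. In PT-like cells, which should lack the receptor, the thinned share was 0 to 2.94%.

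Over the alternatives that difference ranged from 0.28 to 0.44, the latter without the subclusters led by cell cycle genes. These made up 9.09, 6.17, 5.89, 29.5 and 23.1% of CD8 T-like cells. In CD4 T-like cells Cxcr3 differed by -0.07 (SE 0.10). Treg-like cells without the Il1rl1-led subcluster had 1.15, 0.680, 0.838, 0.470 and 0.613, and the whole class differed by -0.50 (SE 0.17). A CD8 subcluster led by Cd8a and Cd160 had the highest CD8 levels in the 4 injured libraries, 1.85, 1.33, 1.27, 1.58 and 1.69. Among cDC1-like cells Cxcr3 stood at 0.687 in the control and 0.1003 to 0.221 in the others.

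Cxcr6 was highest in gamma-delta T-like cells, with 4.09, 2.49, 4.0005, 3.03 and 3.31. Conventional CD4 T-like cells had 2.80, 1.64, 1.76, 1.56 and 1.56, with a log2 difference of -0.17 (SE 0.09). CD8 T-like cells had 2.14, 1.92, 2.18, 1.43 and 1.47, so that CKD lay below the other 3 libraries, by -0.52 on the log2 scale (SE 0.10). The unthinned share of CD8 cells with a Cxcr6 UMI, 38.0, 42.7, 46.4, 37.8 and 51.2%, put CKD 2 highest at its greater depth. The thinned share was 25.9, 24.0, 25.8, 18.9 and 21.0%, with both CKD libraries lowest as in the levels, against 0 to 4.86% in PT-like cells.

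The difference of Cxcr6 in CD8 T-like cells ranged from -0.61 to -0.36 over the alternatives and was nearest 0 without the cycling subclusters. Within CD8 cells the subcluster led by Cd8a and Cd160 had 5.33, 4.55, 4.04, 3.45 and 2.77. That led by Gzmb, Cd7 and Itgae, an integrin gene of tissue-resident T cells, had 3.09, 2.79, 3.14, 2.51 and 2.74. The subcluster led by Ly6c2 and Tcf7, a factor of naive and memory T cells, had 0.178, 0.774, 0.757, 0.648 and 0.379. Both receptors were found in the same thinned CD8 cell in 4.90, 2.10, 2.88, 2.60 and 2.97% of cells, and in the same CD4 cell in 9.56, 3.51, 2.71, 3.26 and 3.41%. Of the 7 other members tested in CD8 T-like cells, Cxcl13 and Cxcl16 were called lower and 0 higher, beside 17.9% of genes called (11.9% higher, 5.99% lower).

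Treg-like Cxcr6 in the control, 2.17, fell to 0.523 without the Il1rl1-led subcluster, next to 0.435, 0.369, 0.353 and 0.338. In macrophage-like cells Cxcr6 was higher in CKD by 1.61 (SE 0.38, edgeR adjusted p = 0.0249), at 0.0134, 0.0288, 0.0220, 0.116 and 0.0582. T cell markers in that class summed to 0.07, 0.683, 0.522, 3.01 and 0.927, highest in the same 2 libraries, and their part in the rise was not tested. The call was lost without AKI 1 (edgeR adjusted p = 0.205), without AKI 2 (0.258), with doublets kept (0.0738) and at the mitochondrial limit of 15% (0.0625). PT-like Cxcr6, at 0.011, 0.056, 0.027, 0.202 and 0.108, likewise went with T cell markers of 0.131, 0.925, 0.671, 4.997 and 2.11 and was not called (edgeR adjusted p = 0.079). NK-like cells had 0.845 in AKI 2 and 0.039 to 0.168 elsewhere, and their T cell marker sum was 21.6 in AKI 2 and 2.05 to 7.41 elsewhere.

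Cxcr5 was highest in B-like cells, with 0.791, 0.457, 0.470, 0.556 and 0.727 on 57, 15, 8, 18 and 33 UMIs. Mature dendritic-like cells had 0.0486 to 0.0672 in AKI 1 to CKD 2. CKD differed from AKI in B-like cells by 0.34 with an SE of 0.37 (edgeR adjusted p = 0.999). Because T cells outnumbered B cells in injured kidneys, T classes held 54.2 to 72.3% of Cxcr5 UMIs there, at CD4 levels of 0.0341 to 0.0535, while in the control B-like cells held 79.2%. The B-like class numbered 264 cells in the control and 46 to 148 in the others.

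**Figure D4:**
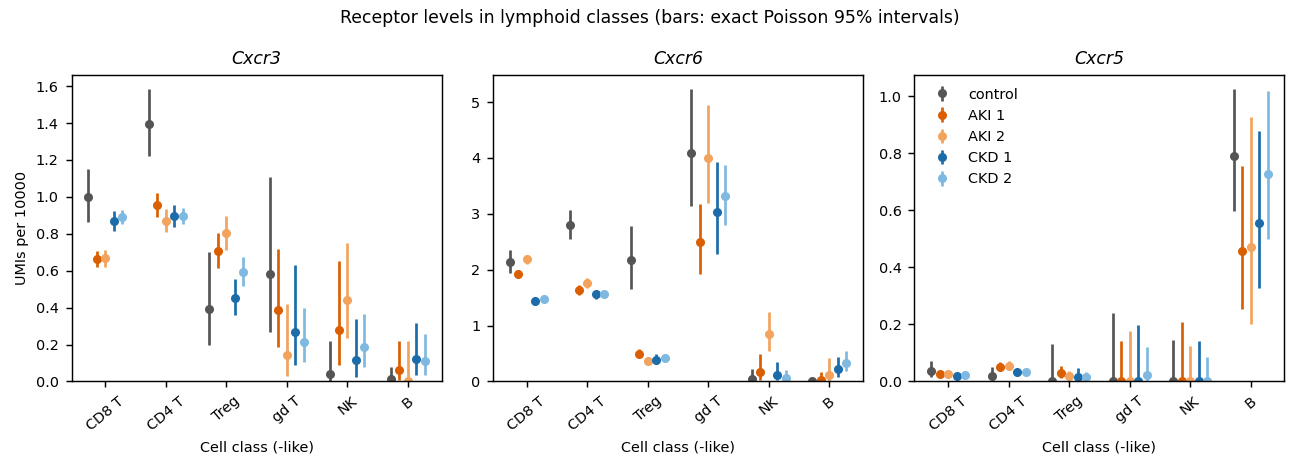
Levels (UMIs per 10000) of Cxcr3, Cxcr6 and Cxcr5 in CD8 T-like, conventional CD4 T-like, Treg-like, gamma-delta T-like, NK-like and B-like cells of each library, with 1 point a library. CD8 Cxcr3 is higher in CKD (0.869 and 0.890) than in AKI (0.662 and 0.667), CD8 Cxcr6 is lower (1.43 and 1.47 against 1.92 and 2.18), and Cxcr5 is highest in B-like cells in every library.

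In the other classes no member passed the test. NK-like and B-like cells had 2 and 3 members tested, with 0.217% and 0.059% of genes called. Of these members 2 and 1 had an unadjusted p under 0.05, beside 165 of 3225 and 142 of 3389 genes. PT-like cells had 8 tested, with 0.149% of genes called. At an unadjusted p under 0.05 were 5 of these members and 1727 of 12051 genes, and the nearest to the threshold was Cxcl9, higher in CKD by 1.54 (SE 0.30, edgeR adjusted p = 0.0694) at 0.006, 0.088, 0.069, 0.269 and 0.163. T cell markers in PT-like cells, given above, were highest in the same 2 libraries, and their part in these values was not tested. Endothelial-like and fibroblast/pericyte-like cells had 8 and 7 tested, and in both edgeR called 0% of genes. There 469 and 633 genes had an unadjusted p under 0.05, 2 and 1 of them members, and DESeq2 called 10 and 20 genes. Members' medians beside those of all genes were 0.25 and 0.01 in endothelial-like, 0.04 and 0.003 in fibroblast/pericyte-like and 0.13 and 0.03 in PT-like cells.

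**Figure D5:**
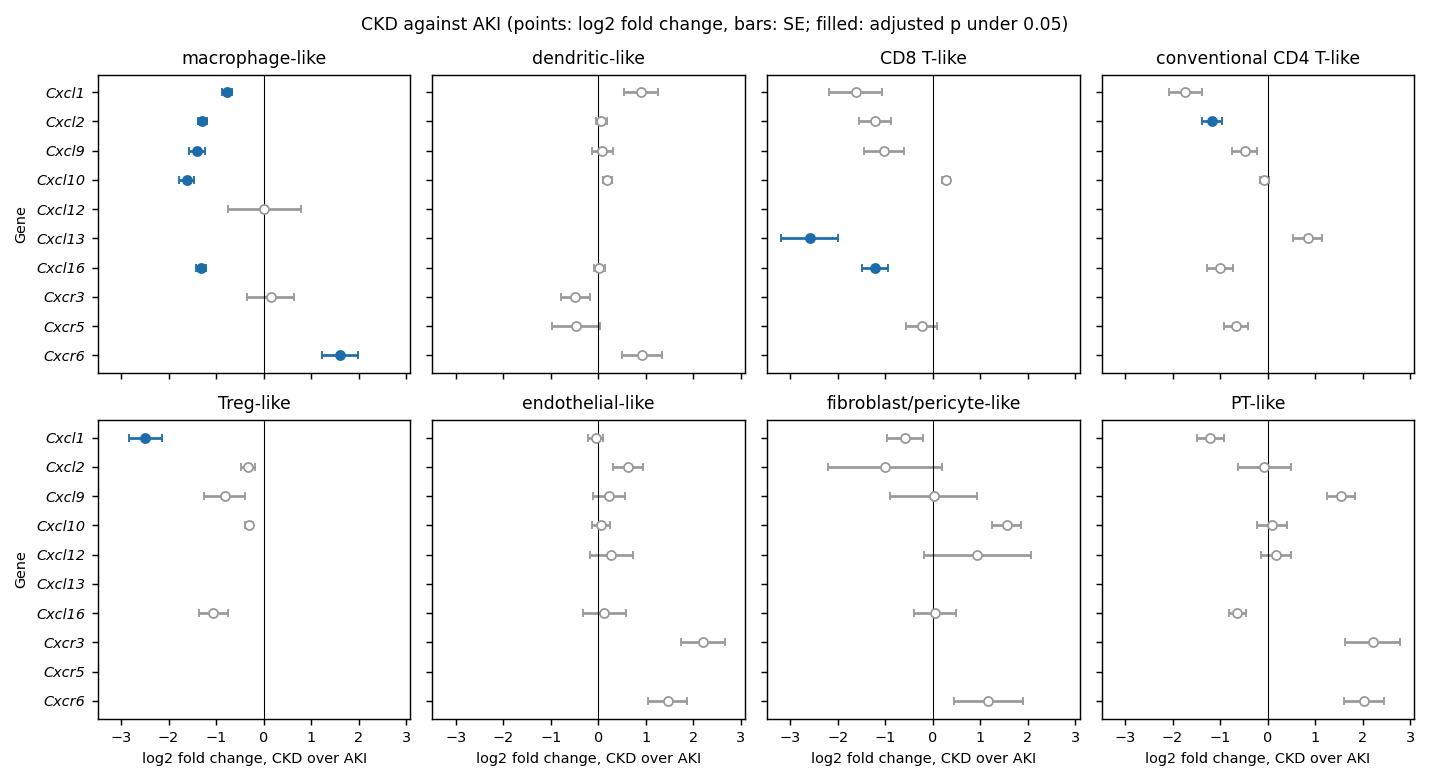
Log2 difference of CKD from AKI (edgeR, with standard errors) for each member tested in 8 classes; filled points have an adjusted p under 0.05, and Cxcl13 in macrophage-like and dendritic-like cells and Cxcr3 and Cxcr6 in T classes are left out. Macrophage-like cells have 5 filled points below 0 and 1 above, and CD8 T-like cells 2 below.

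Genes around the chemokines were taken from lists. In macrophage-like cells 12 of 15 NF-kappa-B responsive genes were lower in CKD and 0 higher, with a median of -1.16, beside 16.4% of all genes lower and a median of 0.02. The largest falls were those of the chemokines Ccl3 (2.66) and Ccl4 (2.27), the NF-kappa-B regulator Nfkbiz (2.00) and the cytokine Il6 (1.85). Of 21 interferon-gamma pathway genes tested 10 were lower and 2 higher, with a median of -0.43. Among them the GTPase Iigp1 fell by 2.34, the MHC class II activator Ciita by 2.15 and the transcription factor Irf8 by 1.80, while Socs1, an inhibitor of the same pathway, rose by 0.97. Of the other CXC ligands, Cxcl14 fell by 2.00, Pf4 by 1.44 and Cxcl3, a further Cxcr2 ligand, by 1.37, and 2 of the 5 tested were not called. The 13 follicle and lymphoid tissue genes tested had a median of 0.67. Of them 4 fell and 1 rose, a share near the 31.4% of all genes called in the class. Among them were Tnfsf13b, which encodes the B cell survival factor BAFF, with a fall by 2.51, and Ccl19, by 1.77. Sh2d1a, an adaptor of lymphocytes, rose by 2.10, in a class whose T cell marker sum was also higher in CKD, as given above. The subclusters behind these counts shifted between the groups, from 43.7 and 47.6% Ccl8-led cells in AKI to 16.0 and 23.1% in CKD. In Ccl8-led cells alone, where Cxcl1 and Cxcl2 were higher in CKD, 4 of 15 NF-kappa-B responsive genes were lower and 0 higher, and 4 of 21 interferon-gamma genes lower and 0 higher, beside 2.9% of genes lower.

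In CD8 T-like cells the 14 NF-kappa-B responsive genes tested had 6 lower and 0 higher, led by Ccl3 (a fall by 1.27) and Il1b (1.25), beside 5.99% of all genes lower. Of 21 interferon-gamma genes 4 were higher, such as Gbp5 (by 0.65) and Psmb9 (by 0.54), and 3 lower, such as Socs1 (by 0.92). Of 10 genes of T cell tissue residence 4 fell and 0 rose: the integrins Itga1 by 0.97 and Itgae by 0.94, the early activation receptor Cd69 by 0.53 and the factor Runx3 by 0.45. The cycling subclusters, 5.89 and 6.17% of these cells in AKI and 23.1 and 29.5% in CKD, and the macrophage markers given above moved with these counts. Without the cycling subclusters edgeR called 1.03% of genes and 0 of the 14 NF-kappa-B responsive and 0 of the 10 residence genes, of which 8 and 5 had an unadjusted p under 0.05. In the whole class the lymph node homing receptor Ccr7 rose by 0.91. Cxcr4, the receptor of Cxcl12, fell by 0.50 in the whole class (edgeR adjusted p = 0.0268). Without the cycling subclusters 0 of the 2 genes tested in its list were called. In CD4 and Treg-like cells 3 NF-kappa-B responsive genes fell in each, of 15 and 14 tested and beside 2.5 and 3.45% of genes called, Ccl3 by 1.47 and 2.02 and Ccl4 by 0.98 and 1.15. Over all lists and classes 11 of 553 gene-by-class tests were higher and 60 lower, beside 3.96 and 3.39% of all such tests.

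The genes whose pattern over classes and libraries was most like a member's were sought among 13238 genes. Over 101 class-by-library points, which share libraries and depth, Cxcl13 was closest to Ccl8 (Pearson r = 0.54), the macrophage genes Fcrls (0.53) and Folr2 (0.50), and Ccl7 (0.52). Cxcl9 was closest to Slamf8 (0.77) and Ifi205 (0.76), and Cxcl12 to the stromal genes Bmp4 (0.86) and Fbn1 (0.85). Cxcr3 lay nearest to Cd3d (0.85) and Cd3g (0.83), and Cxcr6 to Bcl11b (0.90), Lat (0.90) and Cd3e (0.90). These correlations describe the same cells that were used to form the classes and carry no test.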

How the data were processed

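Droplet libraries of mouse kidney cells were analysed at week 0 (control, 1 library), week 2 (AKI, 2) and week 4 (CKD, 2). For each library the files deposited by the authors hold UMI counts, whole numbers for every gene and barcode, from Cell Ranger and STAR without any normalization. The submitters' notes and the paper name Cell Ranger 7.2.0 and GRCm39, while matrix headers of AKI and CKD name version 5.0.0 and the gene list of the control names mm10. All libraries list the same gene identifiers. Whether the control was counted against another reference is not given in the sources used here, and its part in differences from the control was not tested. The steps they describe after counting (filtering on mitochondrial content, ambient RNA correction, doublet calls) had not been applied.

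Barcodes were dropped above 30% mitochondrial UMIs or below 200 genes, and those most like simulated doublets were removed at 0.8% per 1000 cells. Ambient RNA was left in. From 3000 variable genes 40 principal components were computed, adjusted for the library with an implementation of Harmony, and clustered by Leiden (15 neighbours, resolution 1.5, for lymphoid cells 1.2 and myeloid cells 1). Clusters with at least 3 markers detected were named by markers. The rules of naming were settled after the clusters had been seen. Members and gene lists were chosen with earlier results of these data known.

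UMIs summed per class and library, with at least 20 cells, were tested for CKD against AKI by the quasi-likelihood method of edgeR 4.0.16 (2-sided; TMM scaling, filterByExpr, Benjamini-Hochberg, R 4.3.3), after the test had been tested on simulated data. DESeq2 1.42.0, other filters, settings and left-out libraries were alternatives, some added after seeing the data. The p-values measure only the spread between libraries, for which no separate mice are stated, and 2 libraries against 2 allow no 2-sided exact permutation p below 0.333. Intervals are exact Poisson at the 95% level, and the limit for 0 UMIs is 3 counts per library. Shares of cells were compared after thinning to 1500 UMIs. Genes named were the members, at most 4 called genes per list and the 5 nearest by correlation. Python packages were numpy 2.4.6, scipy 1.17.1, igraph 0.11.9 and leidenalg 0.10.2.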

Additional observations from a re-analysis of the deposited data

Results flagged for a closer look

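Cxcr6 moved in opposite ways in 2 classes: CKD was above AKI in macrophage-like cells by 1.61 on the log2 scale and below it in CD8 T-like cells by 0.521 (a change of -0.521), with no overlap of libraries in either. T cell markers in the macrophage-like class summed to 0.683 and 0.522 in AKI and 3.01 and 0.927 in CKD, and their part was not tested. The macrophage-like call was lost without AKI 1 (edgeR adjusted p = 0.205), without AKI 2 (0.258), with doublets kept (0.0738) and at the mitochondrial limit of 15% (0.0625). The difference between the classes was not tested. Within macrophages 3 ligands did so, by the ratio of mean levels: Cxcl1 had a log2 ratio of CKD over AKI of 1.18 in Ccl8-led cells and -1.23 in all other macrophage-like cells, Cxcl2 had 0.778 and -1.83, and Cxcl16 had 0.25 and -1.53. In each case every library of CKD lay on 1 side of both AKI libraries in the first kind of cell and on the other side in the second, and the differences were not tested. Among Ccl8-led cells without Cxcl13, Ccl8 itself stood at 38.5 in AKI and 6.5 in CKD, and whether they were the same kind of cell was not tested.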

How the results depend on the processing

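Of 69 member-by-class tests, 2 were higher and 10 lower in CKD (1 and 9 of 63 without Cxcr3 and Cxcr6 in T classes). The number higher was 5 with DESeq2, 11 with no filter on low counts, 4 with no correction by library, 0 with doublets kept, 0 with a mitochondrial limit of 15% and 1 without the cycling subclusters, and the number lower was 19 with no filter. These member counts and those below include the Cxcr3 and Cxcr6 pairs of T classes, whose values are a description only. In Ccl8-led macrophages alone 5 lower calls were left over all classes, and Cxcl1 (1.02), Cxcl2 (0.61) and Cxcl16 (0.086) turned upward. PT-like Cxcl2 ranged from -1.635 to 0.59 with 1 library left out, turning upward without CKD 2. Leaving out 1 library gave 0 to 14 higher and 3 to 20 lower members, fewest without an AKI library and most without a CKD library. Without AKI 1 or AKI 2, 0 members were higher, 5 and 3 lower. For the lists, 11 higher and 60 lower calls became 56 higher with no filter 18 higher with no correction by library and 6 higher without the cycling subclusters, 35 were lower with Ccl8-led macrophages alone, and leaving out 1 library gave 0 to 85 higher and 9 to 129 lower. The Cxcl13 level of AKI macrophages, 0.697, was 0.523 without the top cell of each library and 0.593 to 0.801 with 1 library left out. Whether replicate numbers pair the libraries cannot be told from 2 pairs (correlations of same-numbered libraries from -0.154 to 0.253). A replicate block gave 5 members higher and 31 list genes higher and lost no member's call. The crossed pairing gave 21 list genes higher. Outside the Cxcr3 and Cxcr6 pairs of T classes, it lost the calls of Cxcr6 in macrophage-like cells and Cxcl13 in CD8 T-like cells. Genes called over all genes moved by over 1.5 times in most classes when a library was left out, from 3985 to 0 without AKI 1 (edgeR, 3550 at an unadjusted p under 0.05) and 5708 without CKD 2 in macrophage-like cells and from 2210 to 0 without AKI 2 (2617 at an unadjusted p under 0.05) and 4518 without CKD 1 in CD8 T-like cells. In CD8 T-like cells they were 1403 with doublets kept, 1278 at the limit of 15% and 124 without cycling subclusters, and in Ccl8-led macrophages 492. Dendritic-like cells had 13 called, 26 with DESeq2, and PT-like cells 18, 216 with DESeq2. With the control in the fit all 69 tests kept direction and side. The cause of these changes was not tested. Depth limits Cxcr5, with 600 UMIs in all, and Cxcl13 outside AKI macrophages most.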

Other observations

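Neutrophil-like cells, the targets of Cxcl1 and Cxcl2, numbered 3 in the control and 26 to 47 in the other libraries. Their receptor gene Cxcr2 had 206 UMIs in all kept cells. Of the family members outside the 10, Cxcr4 had 19769 UMIs, Pf4 12756, Cxcl14 4756, the scavenging receptor gene Ackr3 4727 and Cxcl3 2837.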
